A study of Mus musculus with 10 samples.

Results

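Nuclear genes for the subunits of oxidative phosphorylation were followed in RNA sequenced from sorted sensory neurons of the mouse, taken from dorsal root ganglia (DRG) or from the trigeminal ganglia of the head (TG). Genes were chosen by symbol, taking the names of complex I (Ndufa, Ndufb, Ndufc, Ndufs and Ndufv), complex II (Sdh), complex III (Uqcr and Cyc1), complex IV (Cox4 to Cox8) and complex V (Atp5) and leaving out 4 entries marked as pseudogenes. This gave 90 of the 45952 entries of the expression table, with 89 distinct symbols. Of these, 75 were entries of subunits, 7 were isoforms of complex IV subunits restricted to certain tissues, 1 was a paralog (Ndufa4l2) and 7 share the naming but are not subunits. Levels are in FPKM, read fragments scaled to transcript length and library depth. A gene counted as detected if 2 or more replicates of a ganglion reached 1 FPKM, and 86 members were detected, 74 of them subunits (37 in complex I, 4 in complex II, 9 in complex III, 9 in complex IV and 15 in complex V). The Ndufa4 product, named for complex I, is found with complex IV and is counted here by its name. Cox4i1, the common form of subunit 4 of complex IV, was not analysed here on the FPKM scale.

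The study asked whether the neurons of the 2 ganglia have distinct transcriptomes. All mice were naïve adults carrying the Avil-EGFP transgene Tg(Avil-EGFP)QD84Gsat on a CD1 background, in which the promoter of advillin, a gene of sensory neurons, drives green fluorescent protein. Live fluorescent events were sorted from lumbar DRG (3 male and 3 female libraries) and from TG (2 male and 2 female libraries), each library from 1 mouse, and some satellite glia remained in the sort. Since the RNA is bulk, fewer cells of a type and less RNA per cell cannot be told apart.

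Oxidative phosphorylation takes electrons from NADH and succinate through complexes I to IV to oxygen and uses the proton gradient this builds to make ATP at complex V. Most subunits are encoded in the nucleus, a few in mitochondrial DNA, and complex II is encoded in the nucleus alone. Sensory neurons keep mitochondria along very long axons, and these supply ATP for ion pumping and transport.

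All 12 sensory neuron markers with an FPKM value were detected, summing to 6513 to 9727 FPKM in DRG and 6476 to 7629 in TG. All 10 satellite glia markers were detected too, summing to 1612 to 5605 FPKM in DRG and 4220 to 5610 in TG. By fitted mean 8 of the 10 were higher in DRG and 2 lower, with 0 past the test. Apoe, which was lower in DRG, was the most abundant of them (mean 2248 FPKM in DRG and 3914 in TG). Fewer markers of other cells were detected: 0 of 6 endothelial, 3 of 8 macrophage, 2 of 11 pericyte and smooth muscle, 1 of 5 red blood cell and 1 of 7 striated muscle. Of the markers of myelinating cells, 7 of 8 were detected, and their sum was 864 to 1368 FPKM in DRG and 1314 to 1904 in TG. All 7 of 7 were lower in DRG by fitted mean, with 0 past the test. An unadjusted limma p under 0.05 for ganglion was reached by 4 of these 7 and 1 of the 10 satellite glia markers (6.35% of all genes). The part of these cells in the subunit levels was not tested. FPKM summed to 543862 to 646684 in 9 libraries and to 870872 in male DRG replicate 3, and the rank correlation of that library with the others over all detected genes was the lowest of the 10 (median 0.849, others 0.869 to 0.948).

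On the FPKM scale the nuclear subunits were among the most abundant transcripts of both ganglia. This unit divides by transcript length, and their transcripts are short (median 750 bases, all detected genes with a length 2771). Their places among all genes by read count were not compared. By mean FPKM, 58 of the 74 stood within the first 500 of 12637 detected genes, 71 within the first 1263, and the lowest, Ndufb4 of complex I, was at place 1936. Together they took 6.26% ± 1.52 of all FPKM over the 6 DRG libraries and 5.95% ± 0.770 over the 4 TG libraries (mean ± SD). The share in each DRG library was 6.14%, 4.82% and 9.10% in male replicates 1 to 3 and 6.53%, 5.73% and 5.24% in female replicates 1 to 3. In TG it was 5.52% and 6.94% in the males and 6.14% and 5.19% in the females. Male DRG replicate 3 lay above every other library, male DRG replicate 2 lay below every other, and the 2 ganglia overlapped.

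**Figure D1:**
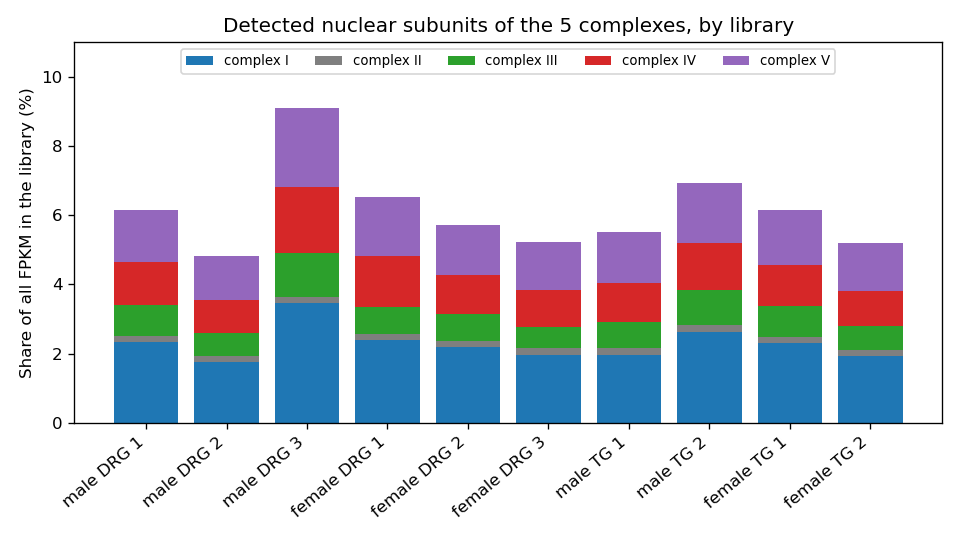
Share of all FPKM (y axis, percent) taken by the detected subunits of each complex in the 6 DRG and 4 TG libraries (x axis), stacked by complex. Totals run from 4.82% in male DRG replicate 2 to 9.10% in male DRG replicate 3, and complex II is the thinnest layer in every library.

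Complex I, which takes electrons from NADH, had the largest summed share (2.35% ± 0.593 of all FPKM in DRG, n = 6, and 2.21% ± 0.327 in TG, n = 4; SD), as the complex with the most genes. Its highest entry was Ndufa4 (chromosome 6, bases 11900292 to 11907497 of GRCm38). Ndufa4 stood at 1607, 641 and 2409 FPKM in male DRG, 1191, 1104 and 787 in female DRG, 633 and 1651 in male TG and 1102 and 654 in female TG. The ganglia overlapped, and male DRG replicate 3 and male TG replicate 2 were the highest of their ganglion. Ndufb8 and Ndufc1, accessory subunits of the membrane arm, came next at 1005 ± 552 and 898 ± 386 FPKM in DRG (SD, n = 6). The other 34 ran down to Ndufb4, with means of 56.5 FPKM in DRG and 41.9 in TG. The 7 core subunits, which carry the redox centres, had a median of 242 FPKM in DRG and 217 in TG, against 396 and 326 for the 29 accessory subunits. Core transcripts were longer (median 1623 bases, accessory 704 bases).

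Complex II, succinate dehydrogenase, had 4 subunits and the lowest sum, 0.169% ± 0.00677 of all FPKM in DRG (n = 6) and 0.178% ± 0.0102 in TG (n = 4; SD). Its share varied least of the complexes across libraries. Sdhb, the iron-sulphur subunit, was highest, at 420, 379 and 809 FPKM in male DRG, 418, 452 and 433 in female DRG, 463 and 574 in male TG and 457 and 398 in female TG. All but male DRG replicate 3 lay between 379 and 574 FPKM. Sdhd and Sdhc, the membrane anchors, averaged 272 ± 59.0 and 139 ± 64.1 FPKM in DRG (SD, n = 6). Sdha, the flavoprotein, was lowest in male DRG replicate 3, with 61.4 FPKM against 160 to 221 in the other 9 libraries.

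Complex III passes electrons from ubiquinol to cytochrome c. Its small subunits Uqcrq, Uqcr11 and Uqcrh had the highest levels, with 1333 ± 799, 1294 ± 806 and 806 ± 463 FPKM in the 6 DRG libraries (mean ± SD) and 1136 ± 373, 1130 ± 244 and 680 ± 230 in the 4 TG libraries. The 2 nuclear subunits that carry its redox centres were far lower. Cyc1, cytochrome c1, had 31.8 FPKM at the lowest, a mean of 146 ± 68.4 in the 6 DRG libraries and one of 220 ± 48.5 in the 4 TG libraries (SD), where it ran from 166 to 282. Uqcrfs1, the Rieske iron-sulphur protein, ran from 20.4 to 103 FPKM in DRG and from 28.7 to 125 in TG. Both were lowest in DRG in female replicate 3, and for both the ganglia overlapped.

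Complex IV, cytochrome c oxidase, held the most abundant member of all. Cox6a1 (chromosome 5, bases 115345642 to 115348981) stood at 1536, 1400 and 4504 FPKM in male DRG, 1729, 1616 and 1545 in female DRG, 1706 and 1848 in male TG and 1580 and 1323 in female TG. Without male DRG replicate 3, all values lay within 1323 to 1848 FPKM. Cox6b1 and Cox6c were at 1415 ± 755 and 1258 ± 634 FPKM in DRG (SD, n = 6), and the lowest, Cox7b, at 342 ± 154. Cox8a and Cox7a2 averaged 1065 ± 642 and 661 ± 310 FPKM in DRG (SD, n = 6) and 907 ± 97.5 and 498 ± 149 in TG (n = 4). Cox5a was listed at 0 in female DRG replicate 3 and at 244 to 661 FPKM in the other 9 libraries, and an exact 0 in a gene this abundant elsewhere can be a failed estimate.

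In every family of complex IV with more than 1 isoform measured, the widely expressed form made up nearly all of the FPKM. Cox7a1, the heart and muscle form of subunit 7a, was the only other form above 10 FPKM on average, with 17.2 ± 10.8 FPKM in DRG (n = 6) and 10.2 ± 5.24 in TG (n = 4; SD), or 2.45% and 1.95% of Cox7a1 and Cox7a2 together. Cox6b2, known from testis, was at 5.45 and 5.52 FPKM on average in DRG and TG (0.349% and 0.480% of its pair) and was listed at 0 in female DRG replicate 3. Cox4i2, known from lung, was at 3.18 ± 3.16 FPKM in DRG and 3.28 ± 0.449 in TG (SD). Cox7b2 reached 4.11 FPKM and Cox8b 2.13 FPKM at most, with 2 and 6 libraries listed at 0. Together with Cox4i2 these made the 3 detected members with the largest coefficient of variation in DRG. Cox6a2, the muscle form of subunit 6a, did not pass the detection filter and was listed at 0 in 6 libraries, with at most 1.25 FPKM. Cox8c and Ndufa4l2, a paralog induced by hypoxia in other tissues, were listed at 0 in every library, as was a further entry of Uqcrc1 under its own identifier. The authors' mean normalised count was 3.65 for Ndufa4l2 and 0.227 for Cox8c, against 9205 for Cox4i1.

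**Figure D2:**
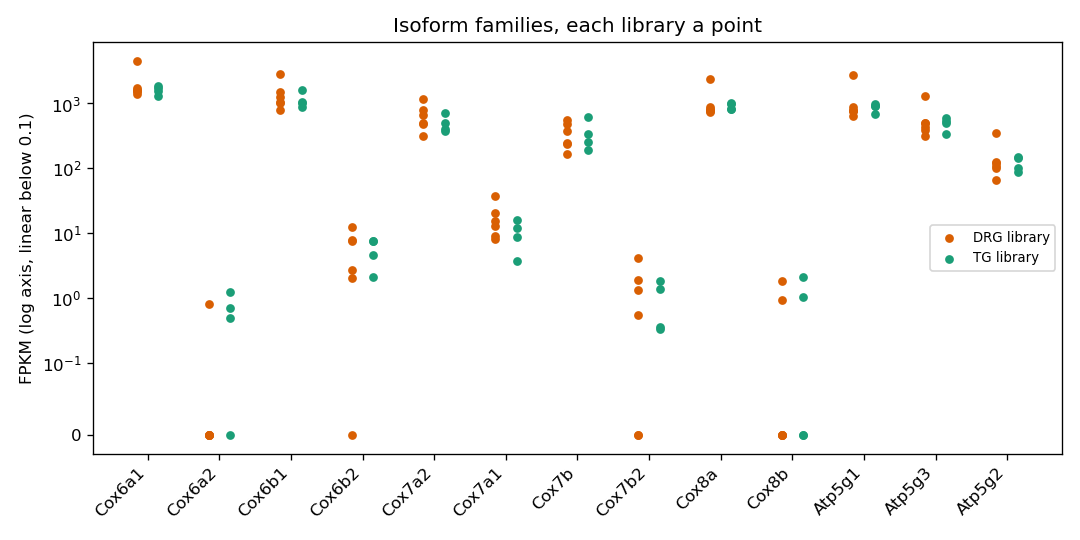
FPKM (y axis, log scale, linear below 0.1) of isoform families of complexes IV and V, each point a library, DRG in orange and TG in green. Cox6a1 lies between 1323 and 4504 FPKM and Cox6a2 at or below 1.25, while all 3 genes of the c subunit lie above 60.

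Complex V, ATP synthase, took 1.60% ± 0.362 of all FPKM in DRG (n = 6) and 1.54% ± 0.155 in TG (n = 4; SD). Atp5k, a small membrane subunit, Atp5o, part of the peripheral stalk, and Atp5g1 were highest, at 1363 ± 688, 1176 ± 531 and 1105 ± 821 FPKM in the 6 DRG libraries (mean ± SD) and 1035 ± 259, 1027 ± 96.1 and 877 ± 136 in the 4 TG libraries. The c subunit, which forms the rotating ring, comes from Atp5g1, Atp5g2 and Atp5g3, whose mature proteins are the same. Their shares of the summed FPKM differed between the ganglia by less than 1 SD: Atp5g1 59.9% ± 2.36 in DRG and 59.0% ± 1.85 in TG, Atp5g3 32.1% ± 2.60 and 33.0% ± 1.81, and Atp5g2 8.0% ± 1.49 and 8.01% ± 1.13 (SD, n = 6 and 4). Over all 10 libraries the share of Atp5g1 ran only from 55.9% to 62.5%, although the sum of the 3 genes ran from 1054 to 4437 FPKM.

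Among the members that are not subunits, the complex II assembly factors Sdhaf4, Sdhaf2, Sdhaf3 and Sdhaf1 averaged 203, 29.1, 11.5 and 0.808 FPKM in DRG and 139, 28.9, 7.90 and 0.858 in TG. Cox7a2l, a supercomplex assembly factor, averaged 228 and 202 FPKM. Atp5sl, a protein of complex I assembly despite its name, averaged 28.8 and 36.1 FPKM and Atp5s 19.9 and 16.6.

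Among the subunits mean FPKM was lower for longer transcripts: across the 74 genes the rank correlation of the length of the principal transcript with mean FPKM was -0.56. Part of this order depends on the unit. Set against the authors' mean normalised count per kilobase of that transcript, the rank correlation across the 74 genes was 0.72 with FPKM and -0.28 with length. Cox6a1 was first by both measures. Atp5k, with a principal transcript of 371 bases, was place 4 by FPKM and place 51 by count per kilobase, and Atp5b, the catalytic beta subunit of complex V, was place 20 and place 7. Genes are not independent replicates, and the order of short transcripts is therefore given only as the FPKM have it.

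In the DNA before these genes, known binding motifs of regulators of mitochondrial genes were searched on both strands, from 250 bases before to 50 bases after each RefSeq start on GRCm38.p6. A window was found for 63 of the 74 subunits and for 27025 genes in all. The letters of nuclear respiratory factor 1 (NRF1), GCGC and TGCGC with any base between them, stood in 17 of the 63 (27.0%), against 5.19% of all genes and 11.8% of 8995 other detected genes. The core letters of ETS factors such as GABP, CCGGAAG, stood in 16 (25.4%), against 9.93% and 19.5%, and at least 1 of these motifs in 29 (46.0%), against 14.0% and 28.7%. The YY1 letters AAGATGGCG stood in 7 (11.1%), against 1.64% and 3.50%. The SP1 letters GGGCGG stood in 25 (39.7%), against 38.2% of all genes and 69.5% of other detected genes, CCAAT in 26 (41.3%), against 41.1% and 42.8%, and TATAAA in 5 (7.94%), against 15.7% and 8.72%. The median GC content of the windows was 58.5% for subunits, 52.8% for all genes and 61.0% for other detected genes. A match is a description of the letters and not a bound site, and some of the motifs can overlap.
The 120 bases before the start of the most abundant member of each complex with a single window are shown to set these letters beside the levels. Capitals mark the matches: none in Ndufa4 (chr6:11907451-11907570, minus strand), SP1 and CCAAT (both as the reverse complement) in Sdhb (chr4:140961151-140961270, plus strand), ETS in Uqcr11 (chr10:80406822-80406941, minus strand), CCAAT and, as reverse complements, NRF1, SP1 and ETS in Cox6a1 (chr5:115348959-115349078, minus strand), and NRF1 in Atp5k (chr5:108434400-108434519, minus strand).
Ndufa4: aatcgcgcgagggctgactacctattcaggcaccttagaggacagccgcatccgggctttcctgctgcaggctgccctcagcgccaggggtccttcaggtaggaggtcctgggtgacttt
Sdhb: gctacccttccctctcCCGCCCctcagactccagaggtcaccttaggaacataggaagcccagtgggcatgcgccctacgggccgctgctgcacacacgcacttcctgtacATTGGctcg
Uqcr11: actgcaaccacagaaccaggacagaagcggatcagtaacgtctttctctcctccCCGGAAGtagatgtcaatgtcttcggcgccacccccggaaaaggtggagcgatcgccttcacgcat
Cox6a1: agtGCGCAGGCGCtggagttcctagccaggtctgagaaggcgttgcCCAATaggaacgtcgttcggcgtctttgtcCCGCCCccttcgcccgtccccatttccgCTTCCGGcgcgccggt
Atp5k: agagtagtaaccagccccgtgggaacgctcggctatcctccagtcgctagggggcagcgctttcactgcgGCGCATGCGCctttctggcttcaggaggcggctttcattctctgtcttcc

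No member passed the test between DRG and TG. In the limma fit of log2(FPKM + 1) with ganglion and sex as terms, 0 of 86 members passed an adjusted p of 0.05, with a smallest adjusted p of 0.792, and 0 had an unadjusted p under 0.05. Over all 12637 genes 14 (0.111%) passed, and 802 (6.35%) had an unadjusted p under 0.05. The levels of the 74 subunits followed nearly the same order in both ganglia, with a rank correlation of 0.97 across genes. The fitted change was within 0.5 (log2) of 0 for 80 of the 86 members, with a median standard error of 0.32 for the subunits, so changes of that size could not be told from 0. The libraries of DRG and TG overlapped for all 86 members, while they did not overlap for 246 genes (1.95%) of all detected.

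**Figure D3:**
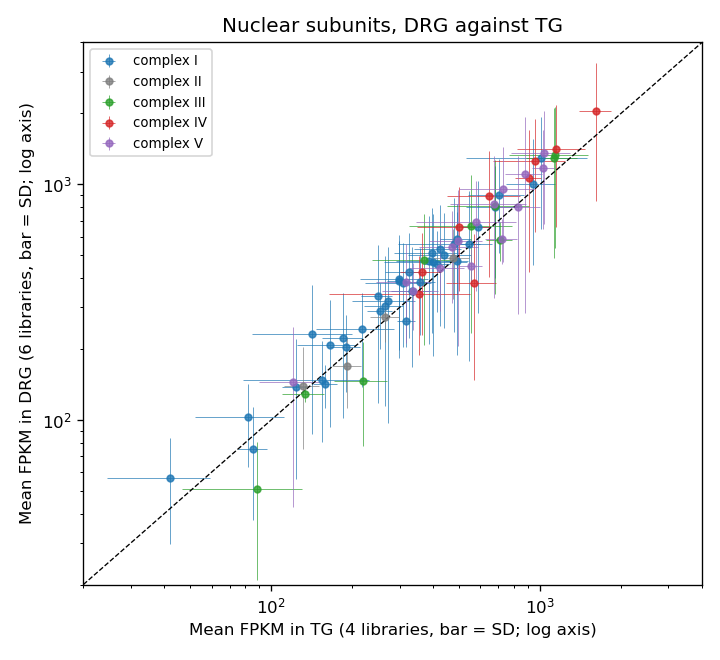
Mean FPKM of each of the 74 detected subunits in TG (x axis, 4 libraries) and DRG (y axis, 6 libraries), both on log axes, coloured by complex with SD bars; the dashed line marks equal levels. The points follow the line over levels from 41.9 to 2055 FPKM, and most lie slightly above it.

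The fitted mean was higher in DRG for 62 members and lower for 24, where 44.3% of all genes were higher, and the median log2 fold change was 0.11 (all genes -0.05). This direction changed when single libraries were left out. Without male DRG replicate 3, 23 members were higher and 62 lower in DRG with a median of -0.08, and without male TG replicate 1, 42 were higher and 44 lower with a median of -0.01. Under quantile rescaling of the libraries 50 were higher and 36 lower, and with array weights 43 and 43.

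The members with the smallest p for higher levels in DRG were Ndufb3, a complex I accessory subunit, Cox7a1 and Sdhaf3. Ndufb3 stood at 227, 111 and 514 FPKM in male DRG, 198, 165 and 171 in female DRG, 113 and 223 in male TG and 136 and 94.2 in female TG. Its log2 fold change was 0.60 ± 0.36 (SE, limma adjusted p = 0.800, exact permutation p = 0.205). The values were 0.66 ± 0.42 (limma adjusted p = 0.806) for Cox7a1 and 0.43 ± 0.28 (limma adjusted p = 0.807) for Sdhaf3. Ndufb3 was at 0.35 without male DRG replicate 3, Cox7a1 at 0.44 without that library and at 0.35 without female TG replicate 2, and Sdhaf3 at 0.29 without female DRG replicate 1. For lower levels in DRG the smallest p were those of Cyc1 (-0.79 ± 0.44, limma adjusted p = 0.792), Uqcrfs1 (-0.78 ± 0.47, limma adjusted p = 0.797) and Atp5a1, the alpha subunit of complex V (-0.31 ± 0.20, limma adjusted p = 0.807). Atp5a1 ran from 333 FPKM (male replicate 3) to 544 in DRG and from 504 to 620 in TG, overlapping, with an exact permutation p of 0.0667. Without female DRG replicate 3 the value of Cyc1 was -0.40 and that of Uqcrfs1 -0.49, and without male TG replicate 2 that of Uqcrfs1 was -1.25. The smallest p that the 210 splits allow is 0.00476.

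Between male and female libraries 0 of 86 members passed (smallest adjusted p 0.816), against 3 of all genes (0.0237%). An unadjusted p under 0.05 was reached by 3 members (3.49%), against 4.10% of all genes, and no member had libraries of 1 sex all above those of the other (0.791% of all genes had). The fitted mean was higher in males for 80 members and lower for 6, with a median log2 difference of 0.27, where 45.1% of all genes were higher in males with a median of -0.04. Without male DRG replicate 3 the split was 59 to 26 and the median 0.07, and under quantile rescaling it was 64 to 22.

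The 3 members with the smallest p for higher levels in males were Atp5g2 (0.74 ± 0.31), Ndufa3 (0.73 ± 0.32) and Ndufa2 (0.73 ± 0.32; SE, limma adjusted p = 0.816 for each). Atp5g2 stood at 120, 109 and 350 FPKM in male DRG, 66.6, 125 and 99.8 in female DRG, 144 and 148 in male TG and 101 and 87.2 in female TG, with an exact permutation p of 0.0238. In TG both male libraries lay above both female ones, and in DRG female replicate 2 lay among the males. Ndufa3, a complex I accessory subunit, stood at 525, 351 and 998 FPKM in male DRG, 257, 449 and 233 in female DRG, 342 and 577 in male TG and 414 and 258 in female TG, with the sexes overlapping in both ganglia (exact permutation p = 0.0635). Ndufa2, also of complex I, had the same high library, with 756 FPKM in male DRG replicate 3 and 166 to 363 in the other 9 (exact permutation p = 0.0556). The log2 differences of Atp5g2, Ndufa3 and Ndufa2 were 0.44, 0.48 and 0.43 without male DRG replicate 3. The smallest p this test can give for sex is 0.00794. For lower levels in males the smallest p were those of Ndufs1, Sdha and Uqcrfs1 (-1.29 ± 1.03, -0.33 ± 0.31 and -0.35 ± 0.46; SE, limma adjusted p = 0.816, 0.818 and 0.853). Without male DRG replicate 3 the value of Ndufs1 was 0.011 and that of Sdha -0.012, and without male TG replicate 2 that of Uqcrfs1 was 0.023. Ndufs1, the largest core subunit of complex I, was listed at 0 in male DRG replicate 3 and at 71.0 to 106 FPKM in the other 9 libraries. For the interaction of ganglion and sex, 0 of 86 members passed and 0 had an unadjusted p under 0.05, with 0 (0%) and 148 (1.17%) of all genes. The smallest p were those of Cox6b2 (1.77 ± 1.18, SE) and Cox8b (1.13 ± 0.78), both with a limma adjusted p of 1.0.

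The members shared a pattern across libraries. Of the 74 subunits, 62 had their highest value in male DRG replicate 3, against 19.9% of all detected genes, and 41 had their lowest in male DRG replicate 2. In 40 of 74, male DRG replicate 3 and male TG replicate 2 were the 2 highest of all 10 libraries, against 7.55% of detected genes. These 2 libraries carry the same number in their descriptions. The median ratio of male DRG replicate 3 to the median of the other 5 DRG libraries was 2.36 over the subunits and 0.814 over all detected genes, and the ratio was above 1.5 in 62 subunits and below 1 in 6. With this library the median coefficient of variation of the subunits in DRG was 0.504, and without it 0.220, against 0.426 and 0.334 for all genes and 0.219 for the subunits in TG.

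**Figure D4:**
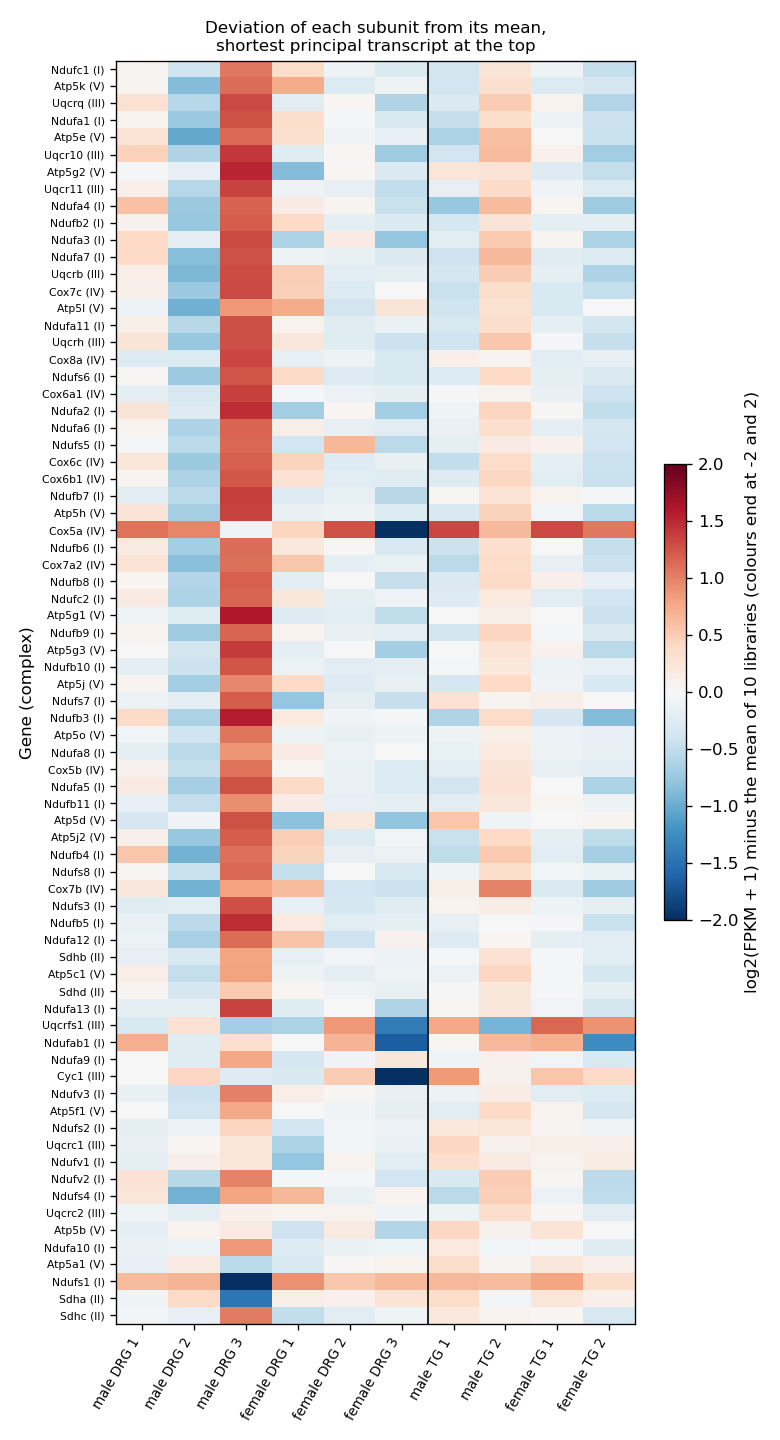
Difference of log2(FPKM + 1) of each of the 74 subunits (rows, shortest principal transcript at the top, complex in brackets) from its mean over the 10 libraries (columns, DRG left of the line, TG right); red is above and blue below the mean. The column of male DRG replicate 3 is red in most rows and fades or turns blue among the long transcripts at the bottom. Sdha is low there, and Ndufs1 is listed at 0, which can be a failed estimate.

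The 5 complexes shared this pattern. The median deviation in male DRG replicate 3 was 1.16, 0.66, 1.28, 1.20 and 1.12 (log2) for complexes I to V, and in male TG replicate 2 it was 0.29, 0.14, 0.39, 0.36 and 0.30. In male DRG replicate 2 it was -0.54, -0.23, -0.57, -0.61 and -0.40. Complex II deviated least in each of these 3 libraries. Its sum in male DRG replicate 3 was 1521 FPKM, against 927 to 1002 in the other DRG libraries, while that of complex I was 30147 against 9569 to 14506.

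The deviations went with transcript length, but in some libraries not as they did over all genes. Principal transcripts of the subunits were short, with a median of 750 bases against 2771 for the 11504 detected genes that have a length. In male DRG replicate 3 the rank correlation of length with deviation was -0.64 across the 74 subunits and -0.50 across the 11504 genes. In male TG replicate 2 it was -0.38 and -0.31. Subunits and all genes had opposite signs in male DRG replicate 1 (-0.36 and 0.14) and female DRG replicate 1 (-0.22 and 0.22). The same held for female DRG replicate 2 (0.23 and -0.07) and male TG replicate 1 (0.54 and -0.005). Both were positive in male DRG replicate 2 (0.54 and 0.23) and female DRG replicate 3 (0.32 and 0.25). Both were also positive in female TG replicate 1 (0.38 and 0.11) and female TG replicate 2 (0.39 and 0.18). Among all detected genes with transcripts of up to 750 bases, the median deviation in male DRG replicate 3 was 1.10, and for subunits of that length it was 1.26. Between 1500 and 3000 bases the values were -0.20 and 0.24. The 37 subunits of up to 750 bases had a median ratio of male DRG replicate 3 to the other DRG libraries of 2.68, and the 20 subunits of over 1200 bases one of 1.40. Atp5g1 (691 bases) had the highest ratio, 3.57. Sdha (2900 bases) at 0.335 and Atp5a1 (2471 bases) at 0.674 were among the lowest, while Cox5a, which is short (645 bases), stood at 0.475. Some longer transcripts had high ratios, among them Ndufa13 (1251 bases) at 2.94, Sdhc, the longest (3171 bases), at 2.31 and Ndufv3 (1582 bases) at 2.24. The part of length, fragment size or RNA quality in these levels was not tested.

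**Figure D5:**
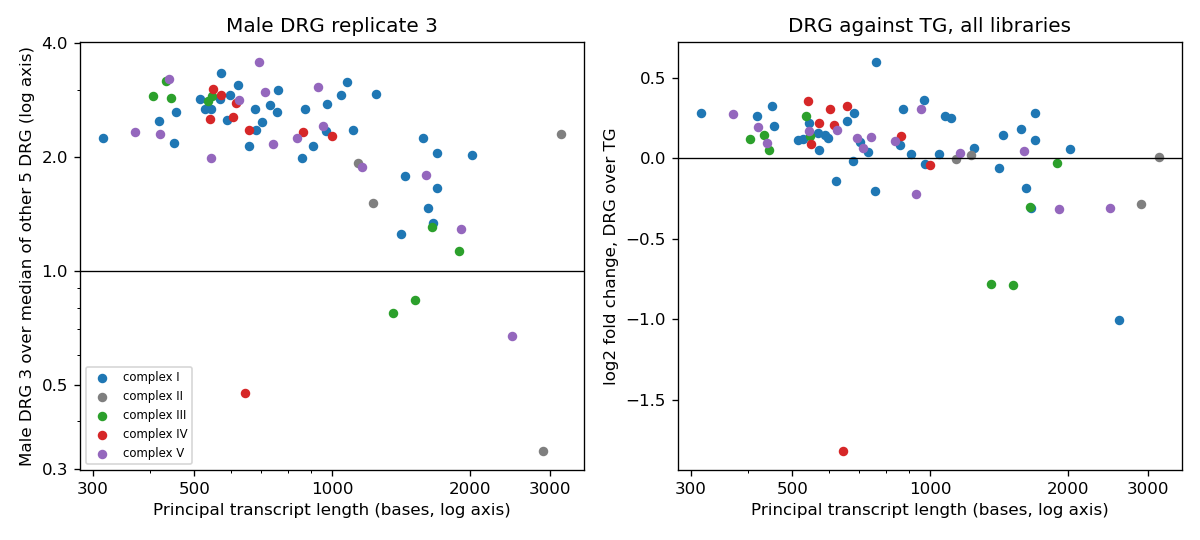
Left, ratio of FPKM in male DRG replicate 3 to the median of the other 5 DRG libraries (log axis) against principal transcript length (log axis) for 73 of the 74 subunits, leaving out Ndufs1, which is listed at 0; right, log2 fold change of DRG over TG against the same length for all 74, both coloured by complex. Ratios are highest for short transcripts and reach 0.335 for Sdha, and the lowest fold change, -1.82, is that of Cox5a (645 bases), which is listed at 0 in female DRG replicate 3.

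The fitted changes between ganglia, of which none passed the test, were also ordered by length, but this too depended on male DRG replicate 3. Of the 37 short subunits, 34 had a higher fitted mean in DRG (median log2 fold change 0.15), and of the 20 long ones 9 did (median -0.04). Across the 74 subunits the rank correlation of length with the log2 fold change was -0.51, against -0.01 across all detected genes. Without male DRG replicate 3, 10 of the 37 short subunits (median -0.07) and 3 of the 20 long ones (median -0.10) were higher in DRG, and the rank correlation across the 74 was -0.22. Without the 3 DRG libraries that stand apart (male replicate 3, female replicates 1 and 3) it was -0.073. These had the lowest median rank correlations with the other libraries over all detected genes (0.849, 0.869 and 0.895, the rest 0.933 to 0.948). The choice thus rests on these same data. Over the subunits the female libraries among them had median deviations of 0.02 and -0.22, and male DRG replicate 2, which was kept, one of -0.50.

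Genes that build or supply the complexes did not pass the test either. Of 43 detected assembly factors, which include the members Sdhaf1, Sdhaf2, Sdhaf3 and Sdhaf4, 0 passed for ganglion or sex. By fitted mean 21 were higher and 22 lower in DRG (median -0.01). The closest to the threshold were Ndufaf6 and Taco1, factors for complex I and complex IV, with log2 fold changes of -0.73 ± 0.36 and -0.57 ± 0.33 (SE, limma adjusted p = 0.775 and 0.794). Of 13 detected electron carriers and regulators 0 passed, with 4 higher and 9 lower in DRG (median -0.10). Ppargc1b, a coactivator of mitochondrial genes, Gabpb1, a subunit of the ETS factor GABP, and Tfam, which packs mitochondrial DNA, had the smallest p (-0.83 ± 0.39, -0.65 ± 0.31 and -0.74 ± 0.37; SE, limma adjusted p = 0.772, 0.772 and 0.774). Of 16 genes of the tricarboxylic acid cycle 0 passed, with 3 higher and 13 lower in DRG (median -0.23). In male DRG replicate 3 the median deviation of the tricarboxylic acid cycle genes was -0.54 and that of the subunits 1.15; the former have a median transcript length of 2590 bases.

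The subunits encoded in mitochondrial DNA were listed at very unequal levels. The authors kept only reads that align once, and the part of this step was not tested. Mt-Cytb, mt-Nd1 and mt-Co1 averaged 3063 ± 1089, 2035 ± 774 and 1658 ± 458 FPKM in the 6 DRG libraries (mean ± SD) and 2534 ± 1321, 1548 ± 890 and 1384 ± 636 in the 4 TG libraries. Mt-Co3, mt-Atp6, mt-Co2 and mt-Nd3 averaged 0.883 to 8.57 FPKM, mt-Atp8 and mt-Nd4l were listed at 0 in every library, and mt-Nd6 was listed at 0 in 7 libraries. Of the 11 detected, 0 passed for ganglion. All 11 had a higher fitted mean in DRG, against 44.3% of all genes (median 0.46, all genes -0.05). Only mt-Nd6, listed at 0 in every TG library, had an unadjusted limma p under 0.05 (0.045, 6.35% of all genes under 0.05). Over the 11 the median deviation was highest in male DRG replicate 3 (0.90) and lowest in male TG replicate 1 (-0.93). The direction of this set was not examined with libraries left out. As for most nuclear subunits, mt-Cytb was highest in male replicate 3 of DRG and male replicate 2 of TG. It stood at 4677 FPKM in male DRG replicate 3 and 4370 in male TG replicate 2. It was at 1407 FPKM in male DRG replicate 2 and 1366 in male TG replicate 1. Among DRG libraries mt-Nd5 was highest in male replicate 1, and mt-Atp6 and mt-Nd3 in female replicate 1. The other detected genes of this set were highest there in male replicate 3.

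For DRG neurons isolated by magnetic sorting elsewhere, the deposited table gives the authors' mean FPKM, which for the 74 subunits ran from 1.13 to 473, with a median of 75.1. Its rank correlation across these genes was 0.59 with the mean in DRG and 0.64 with that in TG. Atp5g2 was lowest in that sort at 1.13 FPKM, where it averaged 145 FPKM in the DRG libraries here, and Ndufa4 was highest in it at 473 FPKM. The libraries were made separately, so levels were not tested between them.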

How the data were processed

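RNA of sorted neurons was sequenced in 10 libraries (6 DRG, 4 TG), grouped by the ganglion and sex in the labels. The authors aligned reads to mm10 with STAR, kept those that align once, and made FPKM with cufflinks, which scales for depth and transcript length. The deposited signal of mean normalised counts (DESeq2 size factors) over the libraries was read as the authors' mean, as was their mean FPKM of magnetically sorted neurons. The deposited tables of comparisons hold the authors' fold changes and p-values and were not used, and 22 further per-sample columns were left out (10 repeat FPKM, 12 hold another study). FPKM carry no counting interval. The smallest steps between low values differ between libraries by up to 1.56 times, an estimate of how far depths differ, and the spread between mice gives the precision.

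Values were put on the scale log2(FPKM + 1), which understates changes of low genes, and fitted by limma 3.58.1 (R 4.3.3; trended eBayes after lmFit; terms ganglion and sex, an interaction added in a further fit) over all 12637 detected genes, with p-values adjusted by Benjamini and Hochberg and a threshold of 0.05. Single members were compared by two-sided exact permutation tests over 210 (ganglion) or 252 (sex) splits. Limma was tested on simulated data. Deviations are from the mean of the 10 libraries. Positions and principal transcripts are from GENCODE M21 (GRCm38), and promoter windows from RefSeq GRCm38.p6. Descriptions used Python 3.11.15, pandas 2.3.3 and scipy 1.17.1.

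The members, gene lists and tests were chosen with earlier results of these data known. Members named with values were the 3 highest per complex, those of isoform families, the 3 smallest p in each direction (2 for the interaction), the 3 most variable in DRG, those not detected and those that are not subunits; Cox5a, Ndufb4, Atp5b and members named for their place in the length relation were named after their values were seen. Description numbers pair 4 DRG with 4 TG libraries (correlation of deviations 0.148 to 0.383, each above 0.1), although nothing says that they share mice. Male DRG replicate 2 also correlated with female TG replicates 1 and 2 (0.146 and 0.145), which have other numbers and are of the other sex. The limit therefore does not set numbered pairs apart. Alternatives were other pseudocounts, filters, scalings, weights and models, both blocks, and libraries left out.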

Additional observations from a re-analysis of the deposited data

Results flagged for a closer look

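Dixon's test was applied to 94 sets of libraries (each named member and each complex sum, in DRG and in TG). In 26 sets a library lay far from the rest of its ganglion, 24 in DRG and 23 in male DRG replicate 3. The sets share libraries and are not independent. Some members were named for their p or spread in these same values, so the usual rate of about 1 set in 20 by chance does not apply.

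In male DRG replicate 3 the values above the other DRG libraries were those of Ndufb8 (2099 FPKM), Ndufa2 (756), Ndufb3 (514), Sdhb (809), Sdhd (383), Uqcrq (2881), Uqcr11 (2902), Uqcrh (1689), Cox6a1 (4504), Cox6b1 (2881), Cox8a (2372), Cox7a2l (371), Cox4i2 (9.46), Atp5o (2249), Atp5g1 (2775), Atp5g3 (1313) and Atp5g2 (350). The summed FPKM of complexes I to V stood apart there too, at 30147, 1521, 10973, 16790 and 19816. Ndufs1 stood apart in the other direction, listed at 0.

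The other flags were Cox6a2 in male DRG replicate 2 (0.816 FPKM, the other 5 DRG libraries listed at 0), Uqcrc1 in male TG replicate 1 (826 FPKM) and Atp5k in male TG replicate 2 (1422 FPKM).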

How the results depend on the processing

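No member was called for ganglion (24 alternatives), sex (20) or the interaction (19), and the smallest adjusted p of any member under them was 0.252, 0.505 and 0.932. Over all genes 14 were called for ganglion, against 118 with array weights and 31 without the 3 libraries that stand apart. With array weights 5 of 86 members and 1655 of 12637 genes had an unadjusted limma p under 0.05. Without male DRG replicate 3, 25 genes were called, and 22 over the libraries with a shared title number without the block. For sex 3 were called, against 7 without the 3 libraries, 5 with array weights and 2 without each of 7 single libraries or with a filter at 5 FPKM. Without male DRG replicate 2, 16 of 86 members and 943 of 12557 genes had an unadjusted limma p under 0.05 for sex. In the main fit 3 members and 518 of 12637 genes had. The median log2 fold change of DRG over TG changed sign with array weights (-0.0001). It also did without the 3 DRG libraries that stand apart (male replicate 3, female replicates 1 and 3), at -0.13. Over the 8 libraries that share a title number it was -0.05, with and without the block. These 8 leave out replicate 3 of male and of female DRG, and without male DRG replicate 3 alone the median was -0.08. Without each library in turn it ran from -0.08 to 0.24, and that of male over female from 0.07 to 0.49. With the replicate block by description number the median was 0.12, and the block changed the call of no member; over all genes 17 were called with it and 15 without it in the same libraries. The numbers in the titles did not pair the libraries (correlations -0.357 to 0.0972). Of 14 named fold changes 11 kept their sign. The male over female values of Ndufs1 and Sdha turned positive without the 3 libraries that stand apart (0.090 and 0.017), Sdha with array weights (0.064), Ndufs1 without male DRG replicate 3 (0.011) and Uqcrfs1 without male TG replicate 2 (0.023). Without each library in turn Ndufs1 ran from -1.77 to 0.011 and Uqcrfs1 from -0.70 to 0.023; the cause was not tested. FPKM hold no counts, so the spread between 4 to 6 mice limits what can be seen.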

Other observations

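Of 17 detected glycolysis genes 0 passed for ganglion, with 3 higher and 14 lower in DRG (median log2 fold change -0.24, all genes -0.05). The smallest p was that of Pfkl, a phosphofructokinase, which averaged 41.5 ± 21.0 FPKM over the 6 DRG libraries and 82.3 ± 20.2 over the 4 TG libraries (SD). Its log2 fold change was -1.11 ± 0.39 (SE, limma adjusted p = 0.647). In male DRG replicate 3 the median deviation of these genes was -0.26, and in male TG replicate 1 it was 0.38.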
